A study of Vitis rotundifolia with 18 samples.

Results

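A set of 79 genes, of the 27228 identifiers measured, had their highest stage median at veraison in berries of the muscadine grape, Vitis rotundifolia. They were chosen from TPM, a transcript level that is scaled for gene length and to the same total in each library. The median of the 6 libraries at veraison had to be at least 10 TPM and at least 2 times the medians of the stages before and after it. The lowest veraison library had to lie above both of those medians. The values that chose the genes are given as a description, and no test was made of veraison against either other stage.

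Berries of the cultivar Noble, whose ripe skin is dark, and of Carlos, whose ripe skin is bronze, were sampled at 3 stages of the E-L scale of grapevine growth, which are E-L 32 (bunch closure), E-L 35 (veraison) and E-L 38 (maturity, or harvest). Each of the 6 groups held 3 libraries made from total RNA, and the labels name no treatment. The study asked which genes take part in ripening in both cultivars or in 1 of them. Nothing in the labels says whether replicates came from separate vines, so the spread behind the p-values is that between these libraries and may be technical.

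Veraison is the onset of ripening in the grape berry. The hard green berry softens, begins to take up hexose sugars into the vacuole and loses malic acid, and dark-skinned cultivars start to make anthocyanins in the skin. The seeds inside the berry mature over the same period, filling with storage proteins and oil and drying down. The labels call the tissue berry and do not say whether seeds were removed. In such bulk samples a change in the share of a tissue and a change in RNA per cell cannot be told apart.

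The identifiers could not be paired with gene names. A reference table with 27334 genes, built on assembly VITMroCarlos_v1.3, matched 0 of them. Each gene is therefore described by its identifier and its values, and no function, promoter or protein sequence is given. The identifiers carry a chromosome field and a running number, used below only to say which members stand next to each other in the list. Marker genes of seed, skin or flesh could not be looked up either, so the part of seed tissue in any value was not tested.

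Several libraries stood apart from their replicates or went against their labels. Libraries held 18919160 to 30843026 expected counts (estimated reads per gene). On the first principal component of the 500 most variable genes, the score of Carlos E-L 35 replicate 3 was 3.90, and its replicates scored 46.6 and 46.4. Noble E-L 32 replicate 1 scored -52.5, and its replicates -79.1 and -82.9. Noble E-L 35 replicate 2 scored 32.0, between its replicates at 48.3 and 22.7. It is set apart by the members' own levels, which were at least 2 times the mean of its replicates in 27 of them. Without this library 22 of the 79 genes left the set, so these levels in part entered the choice. No share over all genes is given for them. These 3 libraries are called atypical below, a choice made with earlier results of these data known. The E-L 38 cultivar labels are in doubt. Of 1815 genes that differed between cultivars at both E-L 35 and E-L 38 by edgeR, 54 (2.98%) differed in the same direction, against 1039 of 1384 (75.1%) at both E-L 32 and E-L 35. Values at E-L 38 are therefore given by label. The rule pools both labels, so the choice of the 79 genes does not depend on them.

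At E-L 32 the 79 genes together took 0.0993% to 0.103% of all transcripts in Carlos and 0.783% to 1.03% in Noble. At E-L 35 they took 15.5% in Carlos replicate 3 and 2.23% to 6.75% in the other libraries. Their summed level was 993, 1008 and 1026 TPM in the Carlos E-L 32 libraries and 10333, 7831 and 7997 TPM in the Noble ones. At E-L 35 it was 22341, 67540.4 and 25978 TPM in Noble and 34489, 32930.1 and 155314 TPM in Carlos. At E-L 38 it was 16747, 15419 and 20097 TPM under the Noble label and 11369, 12494 and 5327 TPM under the Carlos label. Every E-L 35 sum lay above every E-L 32 and E-L 38 sum, which is in part built into the choice of the genes. The highest sums were those of Carlos E-L 35 replicate 3 and Noble E-L 35 replicate 2, and in both most of the sum came from 5 genes. Those 5 held 143723 of the 155314 TPM in the Carlos library and 54283 of the 67540.4 TPM in the Noble library. Without these 5 genes the sums at E-L 35 ran from 7459 to 13257 TPM.

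**Figure D1:**
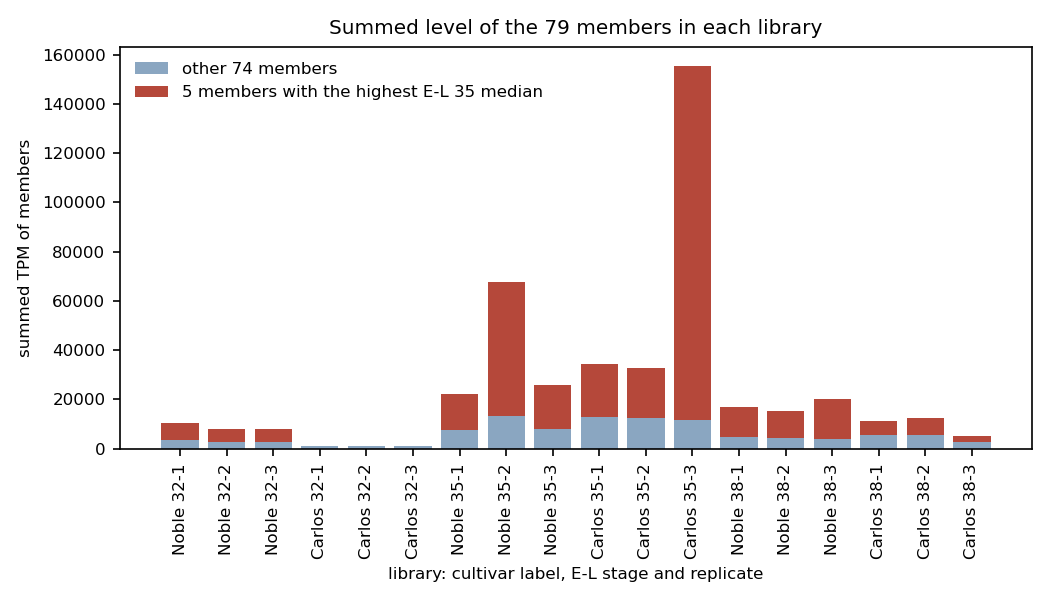
Summed TPM of the 79 genes (y axis) in each of the 18 libraries (x axis, by cultivar label, E-L stage and replicate), split into the 5 members with the highest E-L 35 median and the other 74. Sums at E-L 35 run from 22341 to 155314 TPM, and the 2 tallest bars are Carlos E-L 35 replicate 3 and Noble E-L 35 replicate 2.

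The set ranged widely in level. The E-L 35 median ran from 10.3 to 7983 TPM with a median over genes of 72.4 TPM. It was at least 100 TPM in 30 genes and at least 1000 TPM in 6. Medians over genes were 8.96 TPM at E-L 32 and 22.0 TPM at E-L 38. After veraison most members stayed above their level at bunch closure: the E-L 38 median lay above the E-L 32 median in 66 genes and below it in 13. The larger of the other medians was thus that of E-L 38 for most of them. The E-L 35 median was 2.02 to 1824 times the E-L 32 median (median 4.97) and 2.02 to 18.2 times the E-L 38 median (median 2.62).

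Peaks were mostly shallow and seldom free of overlap. Against the larger of the other medians, the E-L 35 median was under 2.5 times as high in 37 genes, at least 3 times in 21 and at least 4 times in 12. Every E-L 35 library lay above every E-L 32 library in 62 genes. Every E-L 35 library lay above every E-L 38 library in 20, and above all 12 others in 15. The rule already placed the lowest E-L 35 library above both other medians, so these counts are in part built into the choice. No share over all genes is given for them. Libraries of veraison also differed among themselves, by 1.67 to 40.3 times between the lowest and the highest (median 3.36). Carlos E-L 35 replicate 3 was the highest of the 6 in 26 genes and the lowest in 35. Noble E-L 35 replicate 2 was the highest in 24 genes and the lowest in 0.

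**Figure D2:**
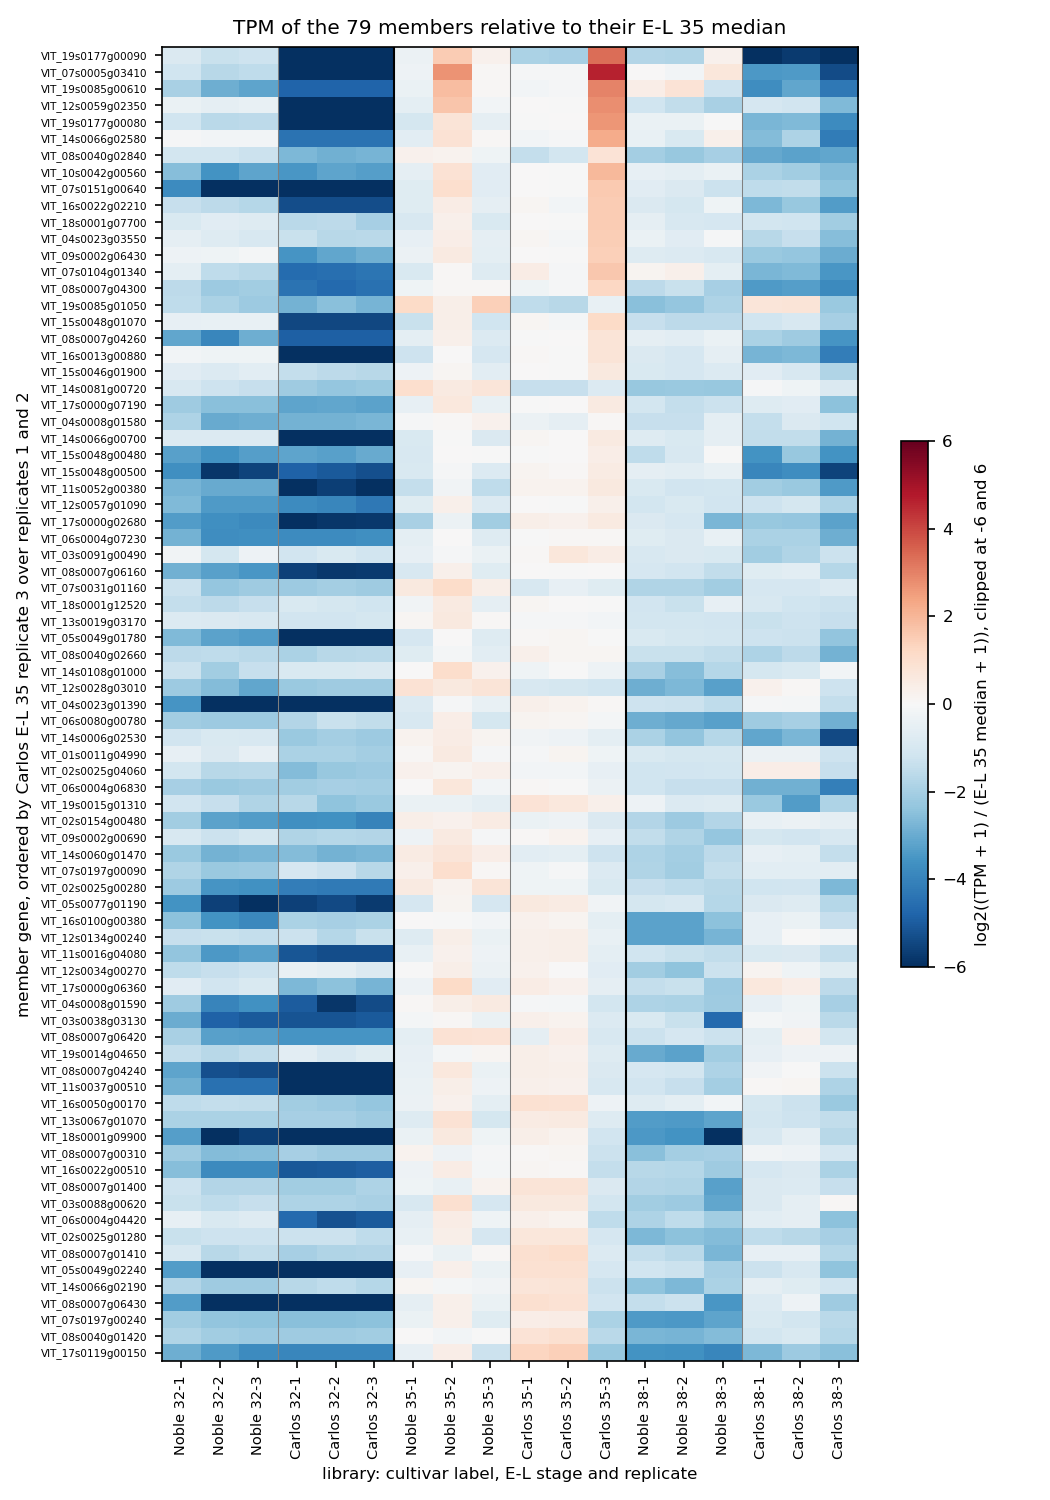
Level of each of the 79 genes (rows, ordered by the ratio of Carlos E-L 35 replicate 3 to its replicates) in each library (columns), as log2 of (TPM + 1) over (E-L 35 median + 1), with blue below and red above the gene's E-L 35 median. The E-L 32 columns are the darkest blue, more so for Carlos than for Noble at the top of the map, and the Carlos E-L 35 replicate 3 column turns from red at the top to blue at the bottom.

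The 10 members with the highest veraison median differed in their level at bunch closure. In several, Noble was already high at E-L 32 while Carlos was near 0. VIT_07s0151g00640 stood at 591, 89.2 and 84.2 TPM in Noble and 2.83, 1.92 and 2.19 TPM in Carlos at E-L 32, at 4889, 16202 and 4961 TPM in Noble and 8167, 7798 and 23379 TPM in Carlos at E-L 35, and at 4911, 4342 and 3263 TPM in libraries labelled Noble and 2778, 2851 and 1517 TPM in those labelled Carlos at E-L 38. Its stage medians were 43.5, 7983 and 3057 TPM, and Noble E-L 32 replicate 1 stood far above the other Noble libraries of that stage. VIT_08s0007g06430 stood at 283, 5.99 and 3.0 TPM in Noble and 0.13, 0 and 0 TPM in Carlos at E-L 32, at 1938, 3568 and 2141 TPM in Noble and 5646, 5236 and 1300.0 TPM in Carlos at E-L 35, and at 1049, 1168 and 253 TPM in libraries labelled Noble and 1615, 2309.8 and 640.0 TPM in those labelled Carlos at E-L 38. It was nearly silent in Carlos at E-L 32, and its E-L 35 median was 1824 times that of E-L 32. That E-L 32 median lies midway between 3.0 TPM in Noble and 0.13 TPM in Carlos, and the ratio was 951 without any 1 Carlos E-L 32 library and 21956 without any 1 Noble one. Its ratio over E-L 38, 2.58, fell to 1.93, under the threshold, without Noble E-L 35 replicate 2 or Carlos E-L 35 replicate 1 or 2. All 6 E-L 35 libraries of VIT_08s0007g06430 lay above all 6 of E-L 32, but Carlos E-L 35 replicate 3 lay below 2 of the E-L 38 libraries labelled Carlos.

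VIT_19s0177g00090 stood at 2801, 2088 and 2218 TPM in Noble and 0.51, 0.11 and 0.11 TPM in Carlos at E-L 32, at 4131, 15047 and 6249 TPM in Noble and 1396, 1322 and 53342 TPM in Carlos at E-L 35, and at 1549, 1495 and 6131 TPM in libraries labelled Noble and 54.9, 96.7 and 6.73 TPM in those labelled Carlos at E-L 38. Noble was high at all stages, and Carlos went from at most 0.51 TPM at E-L 32 to levels that differed 40.3-fold among its and the Noble libraries of E-L 35. VIT_07s0005g03410 stood at 1061, 769 and 846 TPM in Noble and 0.23, 0.07 and 0.1 TPM in Carlos at E-L 32, at 1959, 15860.1 and 2548 TPM in Noble and 2369.7, 2328 and 60362 TPM in Carlos at E-L 35, and at 2522, 2210.5 and 3945 TPM in libraries labelled Noble and 223, 229.6 and 59.1 TPM in those labelled Carlos at E-L 38. The same 2 atypical E-L 35 libraries were its highest, by far, and the Carlos one alone gave it 60362 TPM. Its expected counts were not whole in 16 libraries, so part of its level rests on reads shared with similar genes. It was also the member closest to the fold threshold, with an E-L 35 median 2.02 times that of E-L 38. Without any 1 Noble-labelled E-L 38 library the E-L 32 median became the larger, and the E-L 35 median was 6.39 times it. Without any 1 Carlos-labelled one it was 1.11 times the E-L 38 median.

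VIT_14s0066g00700 stood at 2061, 2074 and 2048 TPM in Noble and 4.06, 1.85 and 2.0 TPM in Carlos at E-L 32, at 1965, 3606 and 1987 TPM in Noble and 4017, 3735 and 5339.7 TPM in Carlos at E-L 35, and at 2152, 1939 and 2505 TPM in libraries labelled Noble and 1325, 1311 and 509.9 TPM in those labelled Carlos at E-L 38. VIT_16s0013g00880 stood at 1286, 1207 and 1203 TPM in Noble and 0.74, 0.56 and 0.33 TPM in Carlos at E-L 32, at 608, 1492 and 716 TPM in Noble and 1555, 1424 and 2518 TPM in Carlos at E-L 35, and at 791, 716 and 990.0 TPM in libraries labelled Noble and 211, 227 and 82.3 TPM in those labelled Carlos at E-L 38. In Noble both genes had a lower median of 3 at veraison than at bunch closure, and in Carlos both went from a few TPM or less to above 1400 TPM. Their pooled E-L 32 medians of 1026 and 602 TPM lie midway between the cultivars, at a level that no library had. The pooled median lies between the cultivars in this way in the 52 members with every Noble E-L 32 library above every Carlos one (38.6% of all 17657 genes tested), and in 9 with the reverse (23.4%). In 21 of the 79 genes the lowest Noble E-L 32 library was at least 10 times the highest Carlos E-L 32 library, as it was in 2.11% of all genes tested. Since such a median can pass the rule between cultivars that differ, these counts are in part built into the choice of the genes. Leaving out any 1 Carlos E-L 32 library moved the pooled median to a Noble value, and the ratio of VIT_16s0013g00880 over the larger other median then went from 2.42 to 1.21.

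**Figure D3:**
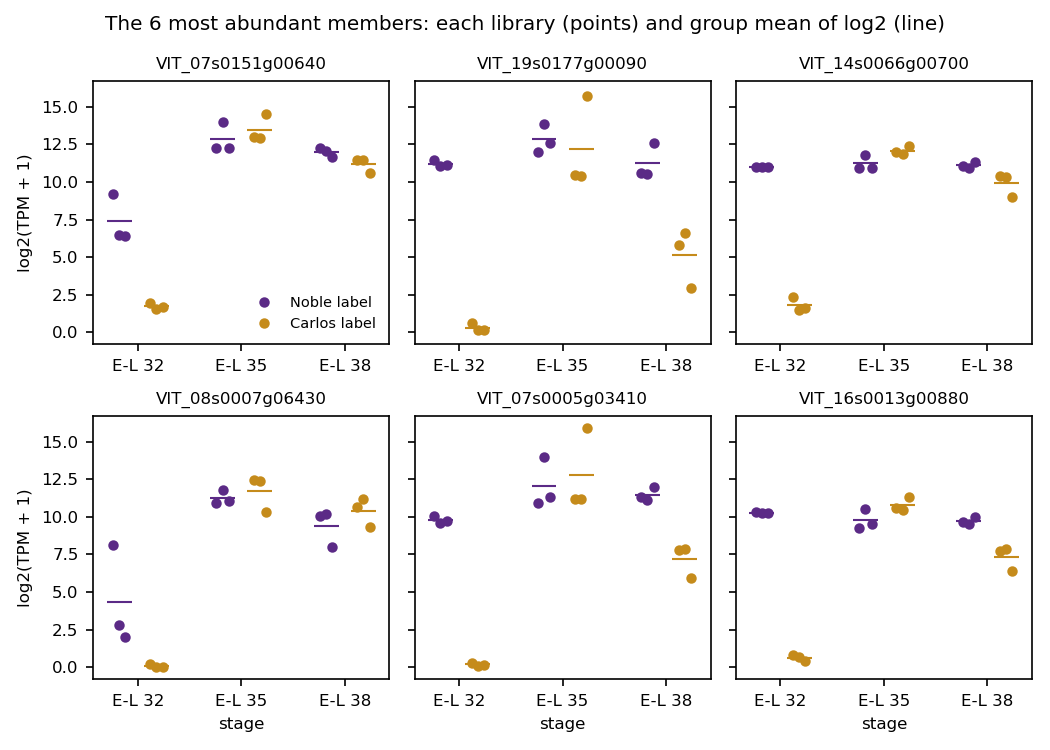
The 6 members with the highest E-L 35 median, with log2(TPM + 1) on the y axis and stage on the x axis, and each point a library coloured by cultivar label with a line at the group mean of the log2 values. VIT_19s0177g00090, VIT_14s0066g00700, VIT_07s0005g03410 and VIT_16s0013g00880 were high in Noble and near 0 in Carlos at E-L 32.

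The remaining 4 of the 10 most abundant members reached 706 to 804 TPM as a median at E-L 35. VIT_11s0037g00510 stood at 107, 34.8 and 35.7 TPM in Noble and 4.26, 3.74 and 3.65 TPM in Carlos at E-L 32, at 609, 1041 and 651 TPM in Noble and 994, 957 and 413 TPM in Carlos at E-L 35, and at 359, 307 and 198 TPM in libraries labelled Noble and 842, 866 and 219.5 TPM in those labelled Carlos at E-L 38. VIT_05s0049g02240 stood at 67.2, 5.23 and 6.64 TPM in Noble and 8.0, 7.72 and 10.1 TPM in Carlos at E-L 32, at 506, 872 and 540.0 TPM in Noble and 1350.1, 1343 and 354 TPM in Carlos at E-L 35, and at 307, 288 and 176 TPM in libraries labelled Noble and 290.3, 364 and 131 TPM in those labelled Carlos at E-L 38. In both genes Carlos E-L 35 replicate 3 was the lowest library of veraison. VIT_05s0049g01780 stood at 119, 81.4 and 71.7 TPM in Noble and 0.05, 0.27 and 0.61 TPM in Carlos at E-L 32, at 374, 755 and 436 TPM in Noble and 787, 819 and 749 TPM in Carlos at E-L 35, and at 396, 364 and 346 TPM in libraries labelled Noble and 318, 306 and 143 TPM in those labelled Carlos at E-L 38. Carlos was all but silent for it at E-L 32, at 0.05 to 0.61 TPM, while Noble was not. VIT_08s0040g02660 stood at 257, 262 and 245 TPM in Noble and 205, 237 and 251 TPM in Carlos at E-L 32, at 455, 706 and 499 TPM in Noble and 958, 827 and 824 TPM in Carlos at E-L 35, and at 307, 303 and 271 TPM in libraries labelled Noble and 209, 254 and 106 TPM in those labelled Carlos at E-L 38. This gene differed from the other 9 in being substantial at bunch closure in both cultivars, with every E-L 35 library above all 12 others.

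The 10 sharpest peaks were ranked by the E-L 35 median over the larger other median, with 1 TPM added to both. VIT_17s0119g00150 had the sharpest, with stage medians of 0.055, 14 and 0.765 TPM. VIT_17s0119g00150 stood at 0.94, 0.4 and 0.11 TPM in Noble and 0, 0 and 0 TPM in Carlos at E-L 32, at 9.49, 18.4 and 5.11 TPM in Noble and 35.5, 39.1 and 2.11 TPM in Carlos at E-L 35, and at 0.24, 0.19 and 0 TPM in libraries labelled Noble and 1.29, 2.35 and 1.59 TPM in those labelled Carlos at E-L 38. Carlos replicates 1 and 2 were its highest libraries, and Carlos replicate 3 was the lowest of the 6. Leaving out any 1 E-L 38 library labelled Carlos moved its ratio from 18.2 to 58.2, and leaving out any 1 labelled Noble moved it to 10.8.

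VIT_18s0001g09900 stood at 8.07, 0.37 and 0.78 TPM in Noble and 0, 0 and 0 TPM in Carlos at E-L 32, at 68.3, 136 and 74.7 TPM in Noble and 115, 104 and 40.4 TPM in Carlos at E-L 35, and at 7.2, 6.58 and 0.14 TPM in libraries labelled Noble and 45.5, 60.8 and 28 TPM in those labelled Carlos at E-L 38. Its E-L 38 levels were low under the Noble label and 28 to 60.8 TPM under the Carlos label. Its ratio over the larger other median, 5.09, was 12.4 when any 1 E-L 38 library labelled Carlos was left out and 3.20 when any 1 labelled Noble was. VIT_17s0000g02680 stood at 21.6, 17.1 and 15.6 TPM in Noble and 2.51, 3.03 and 3.25 TPM in Carlos at E-L 32, at 59.3, 185 and 54.6 TPM in Noble and 301, 280.4 and 344 TPM in Carlos at E-L 35, and at 127, 114 and 34.3 TPM in libraries labelled Noble and 47.9, 45.3 and 24.6 TPM in those labelled Carlos at E-L 38. Carlos was higher than Noble at veraison, and the order was the other way round at bunch closure. VIT_19s0177g00090, described above, was also among the 10 sharpest, at 4.97 times the larger other median, or 2.49 times when any 1 Carlos E-L 32 library was left out.

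VIT_08s0007g04300 stood at 13.3, 8.51 and 9.05 TPM in Noble and 0.99, 0.65 and 0.9 TPM in Carlos at E-L 32, at 34.5, 44 and 43.1 TPM in Noble and 34.9, 39.8 and 100.4 TPM in Carlos at E-L 35, and at 13.5, 16 and 9.83 TPM in libraries labelled Noble and 2.98, 3.3 and 2.02 TPM in those labelled Carlos at E-L 38. Every E-L 35 library of this gene lay above all 12 others, at 6.32 times the larger other median. VIT_06s0004g06830 stood at 25, 20.8 and 22.2 TPM in Noble and 22.9, 24.4 and 24 TPM in Carlos at E-L 32, at 102, 163 and 90.1 TPM in Noble and 106, 101 and 79.5 TPM in Carlos at E-L 35, and at 43.8, 38.1 and 37.6 TPM in libraries labelled Noble and 13, 13 and 4.88 TPM in those labelled Carlos at E-L 38. It too was separate from both other stages in every library, at 4.0 times the larger other median. VIT_13s0067g01070 stood at 87.5, 85.9 and 85.4 TPM in Noble and 80.1, 81.6 and 72.5 TPM in Carlos at E-L 32, at 188, 587 and 156 TPM in Noble and 461, 478 and 189.9 TPM in Carlos at E-L 35, and at 30.8, 29.8 and 35.1 TPM in libraries labelled Noble and 152, 136 and 117 TPM in those labelled Carlos at E-L 38. Levels at bunch closure were alike in both cultivars, and the veraison libraries were 3.76-fold apart. Its ratio of 3.9 was 2.27 without Noble E-L 35 replicate 2 or without Carlos E-L 35 replicate 1 or 2.

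VIT_08s0040g01420 stood at 32, 26.3 and 25.2 TPM in Noble and 25.6, 25.6 and 26.3 TPM in Carlos at E-L 32, at 119, 103 and 113 TPM in Noble and 203, 229.8 and 36.6 TPM in Carlos at E-L 35, and at 16.7, 15.9 and 18.4 TPM in libraries labelled Noble and 54.3, 61.1 and 34.7 TPM in those labelled Carlos at E-L 38. VIT_07s0197g00240 stood at 12.3, 10.1 and 9.71 TPM in Noble and 9.04, 9.04 and 9.43 TPM in Carlos at E-L 32, at 42.2, 69.5 and 33.3 TPM in Noble and 74.8, 77.4 and 14.5 TPM in Carlos at E-L 35, and at 4.46, 4.17 and 5.25 TPM in libraries labelled Noble and 29, 25.3 and 17.7 TPM in those labelled Carlos at E-L 38. Both genes were flat at E-L 32, with little difference between cultivars, and in both Carlos E-L 35 replicate 3 was the lowest of the veraison libraries. The ratio of VIT_07s0197g00240, 4.88, was 3.16 when any 1 Noble-labelled E-L 38 library was left out. VIT_19s0085g01050 stood at 13.1, 9.9 and 8.09 TPM in Noble and 4.69, 6.23 and 4.86 TPM in Carlos at E-L 32, at 88.4, 50.0 and 108 TPM in Noble and 13.2, 11.8 and 29 TPM in Carlos at E-L 35, and at 6.08, 7.08 and 10.2 TPM in libraries labelled Noble and 67.1, 67.8 and 7.71 TPM in those labelled Carlos at E-L 38. Its veraison level was higher in all 3 Noble libraries than in Carlos, and Carlos replicates 1 and 2 at E-L 35 lay below 2 of the E-L 38 libraries labelled Carlos. Expected counts of VIT_07s0197g00240 were not whole in all 18 libraries, and those of VIT_17s0119g00150 in 4.

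The members whose 6 veraison libraries were most alike were at most 1.76-fold apart. VIT_13s0019g03170 stood at 194, 187 and 172 TPM in Noble and 153, 154 and 166 TPM in Carlos at E-L 32, at 368, 507 and 356 TPM in Noble and 321, 324 and 303 TPM in Carlos at E-L 35, and at 158, 157 and 152 TPM in libraries labelled Noble and 136, 144 and 128 TPM in those labelled Carlos at E-L 38. This was the tightest of the 79, with veraison libraries 1.67-fold apart, and its E-L 35 median was 2.02 times that of E-L 32, just above the threshold of 2. VIT_04s0008g01580 stood at 38.7, 16.5 and 17.7 TPM in Noble and 19, 19 and 20.4 TPM in Carlos at E-L 32, at 135, 146 and 168 TPM in Noble and 111, 96.7 and 147 TPM in Carlos at E-L 35, and at 53.3, 53.8 and 93.7 TPM in libraries labelled Noble and 51.5, 77.2 and 61.9 TPM in those labelled Carlos at E-L 38. VIT_02s0025g04060 stood at 48.9, 32.8 and 34.2 TPM in Noble and 16.7, 21.3 and 22.9 TPM in Carlos at E-L 32, at 125, 117 and 131 TPM in Noble and 93.8, 95.1 and 74.5 TPM in Carlos at E-L 35, and at 45.7, 47.7 and 49.4 TPM in libraries labelled Noble and 140.0, 140.3 and 40.0 TPM in those labelled Carlos at E-L 38. For VIT_02s0025g04060, E-L 38 replicates 1 and 2 labelled Carlos lay above every E-L 35 library. The widest veraison ranges were those of VIT_19s0177g00090 (40.3-fold), VIT_07s0005g03410 (30.8-fold) and VIT_17s0119g00150 (18.5-fold).

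Many genes lay close to the thresholds on either side. Just inside the minimum of 10 TPM were VIT_07s0031g01160 at 10.3, VIT_08s0007g06420 at 10.6 and VIT_15s0046g01900 at 10.9 TPM. Just outside it were VIT_08s0032g01220 at 9.84, VIT_07s0005g06010 at 9.37 and VIT_07s0197g00210 at 9.05 TPM. By the ratio over the larger other median, VIT_07s0005g03410, VIT_13s0019g03170 and VIT_16s0050g00170 were inside at 2.02 each. VIT_18s0001g02120 at 1.99, VIT_18s0001g14310 at 1.98 and VIT_13s0067g02710 at 1.97 were outside, among 241 genes that missed this condition alone. By the lowest veraison library over the larger other median, VIT_05s0077g01190 (1.002), VIT_14s0081g00720 (1.01) and VIT_16s0013g00880 (1.01) were inside. VIT_09s0002g00580 (0.994), VIT_14s0083g01220 (0.988) and VIT_01s0146g00150 (0.983) were outside, among 53 that missed it alone. At 1.5 times in place of 2 the rule gave 156 genes, and at 3 times 21.

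Few of the 79 genes met the whole rule in each cultivar taken by itself. With medians of 3 in place of 6, the rule was met in both cultivars by 9 genes with the labels as given and by 12 with the E-L 38 labels exchanged. All of these were members, and 6 met it under both readings. Those 6 were VIT_06s0004g06830, VIT_08s0007g04300, VIT_09s0002g00690, VIT_14s0006g02530, VIT_15s0048g00480 and VIT_18s0001g12520. By the whole rule, the working description of the set as genes that peak in both cultivars therefore holds for a small part of it. The others met the rule in the pooled medians. A gene that missed it in a cultivar can still have its highest median at E-L 35 there. In Carlos the E-L 35 median lay above the E-L 32 median in all 79 genes, and at least 2 times above it in 76. In Noble it lay above in 73 and at least 2 times above in 60. The 6 exceptions in Noble were VIT_16s0013g00880, VIT_15s0048g01070, VIT_18s0001g07700, VIT_09s0002g06430, VIT_03s0091g00490 and VIT_14s0066g00700, at 0.593 to 0.964 times the E-L 32 median. Against E-L 38 under the same label, the E-L 35 median lay above in 68 genes in Noble and 73 in Carlos. It was at least 2 times as high in 47 genes in Noble and 52 in Carlos. With the E-L 38 labels exchanged it lay above in 70 and 76, and was at least 2 times as high in 37 and 61.

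Of the 6 genes that met the rule in each cultivar under both readings, VIT_06s0004g06830 and VIT_08s0007g04300 are given above. VIT_14s0006g02530 stood at 34.8, 41.5 and 39.4 TPM in Noble and 16.2, 18.3 and 16.8 TPM in Carlos at E-L 32, at 90.4, 109 and 88.9 TPM in Noble and 68.4, 62.8 and 52.4 TPM in Carlos at E-L 35, and at 20.6, 14.4 and 23.4 TPM in libraries labelled Noble and 8.25, 11.1 and 0.89 TPM in those labelled Carlos at E-L 38. VIT_09s0002g00690 stood at 15.4, 12.1 and 14.4 TPM in Noble and 8.2, 8.57 and 8.47 TPM in Carlos at E-L 32, at 25, 45.5 and 29.1 TPM in Noble and 32.2, 35.3 and 21.7 TPM in Carlos at E-L 35, and at 10.4, 8.04 and 5.4 TPM in libraries labelled Noble and 14.1, 13.1 and 15.4 TPM in those labelled Carlos at E-L 38. VIT_18s0001g12520 stood at 5.47, 4.91 and 5.64 TPM in Noble and 8.07, 7.22 and 6.54 TPM in Carlos at E-L 32, at 14.2, 23.8 and 10.9 TPM in Noble and 17.5, 16.5 and 16.1 TPM in Carlos at E-L 35, and at 6.69, 5.83 and 11.2 TPM in libraries labelled Noble and 7.82, 6.58 and 6.19 TPM in those labelled Carlos at E-L 38. In the first 2 of these 3 every veraison library lay above all 12 others, and in VIT_18s0001g12520 Noble-labelled E-L 38 replicate 3 lay above Noble E-L 35 replicate 3. VIT_15s0048g00480 stood at 0.25, 0 and 0.21 TPM in Noble and 0.34, 0.24 and 0.47 TPM in Carlos at E-L 32, at 5.21, 10.9 and 10.6 TPM in Noble and 10.9, 10.9 and 14.5 TPM in Carlos at E-L 35, and at 3.09, 5.07 and 10.6 TPM in libraries labelled Noble and 0, 1.46 and 0 TPM in those labelled Carlos at E-L 38. At these levels of a few TPM, and with expected counts not whole in 8 libraries, the values of VIT_15s0048g00480 rest on few reads. In Noble, its E-L 35 libraries overlapped the E-L 38 libraries of the same label. The lowest Noble E-L 35 library, at 5.21 TPM, lay just above the E-L 38 median of that label, 5.07 TPM.

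The atypical veraison libraries departed from their replicates in sets of genes that overlapped in part. Carlos E-L 35 replicate 3 was at least 2 times the mean of replicates 1 and 2 in 17 members and at most 0.5 times in 21. Noble E-L 35 replicate 2 was at least 2 times the mean of replicates 1 and 3 in 27 members and at most 0.5 times in 0. The members highest in the Carlos library over its replicates were VIT_19s0177g00090 (39.2 times its replicates), VIT_07s0005g03410 (25.7 times), VIT_19s0085g00610 (8.94 times), VIT_12s0059g02350 (6.89 times) and VIT_19s0177g00080 (6.24 times). The lowest were VIT_17s0119g00150 (0.0566 times), VIT_08s0040g01420 (0.169 times) and VIT_07s0197g00240 (0.191 times). TPM sums to the same total in every library, and the part of the few most abundant genes in these departures was not tested.

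The 17 genes that were high in the Carlos library included many that were also high in the Noble library. Of the 17, 12 were at least 2 times their replicates in Noble E-L 35 replicate 2, against 5 of the 21 low genes and 10 of the 41 between. Across the 79 genes the log2 departures of these libraries correlated at Pearson r = 0.40 (Spearman rho 0.35), where the genes share the same 2 libraries and are not independent. Of the same 17 genes, 12 had a Noble E-L 32 mean over 10 times the Carlos one, against 8 of 21 and 8 of 41 in the other classes. Their median over genes was 16.9 TPM in Noble and 0.243 TPM in Carlos at E-L 32. The classes were drawn after these values were seen and were not tested. Seed markers could not be looked up, and the part of tissue makeup in these libraries was not tested.

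**Figure D4:**
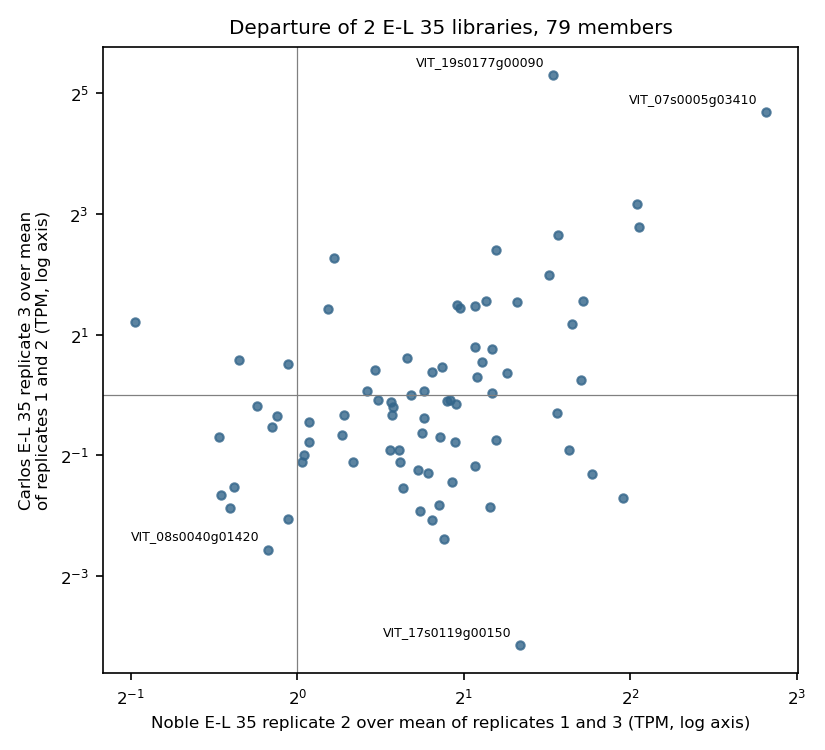
Each point is a member, placed by Noble E-L 35 replicate 2 over the mean of replicates 1 and 3 (x axis) and Carlos E-L 35 replicate 3 over the mean of replicates 1 and 2 (y axis), both as TPM ratios on log axes. VIT_19s0177g00090 and VIT_07s0005g03410 stand far above the others on the y axis, at 39.2 and 25.7, and VIT_17s0119g00150 lies lowest, at 0.0566.

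Noble and Carlos were compared at each stage with edgeR. The rule is not independent of these comparisons, because a pooled median depends on how the cultivars lie at a stage. Of the 79 genes, 14 left the set when 1 or another of the Carlos E-L 32 libraries was left out, 13 of them with any of the 3. With Noble E-L 32 libraries 3 left it in this way. For E-L 35, 23 left it with Noble libraries and 17 with Carlos ones. For E-L 38, 18 left it with Carlos-labelled libraries and 13 with Noble-labelled ones. The counts of members are therefore a description beside the share of all genes, and nothing is read from their excess over it. At bunch closure the members were mostly higher in Noble. Of the 79, 38 differed (48.1%), 34 higher in Noble and 4 higher in Carlos, where 27.5% of all 17657 genes tested differed, 13.8% higher and 13.6% lower in Noble. The median log2 fold change over members was 1.08, against 0.010 over all genes. Of the 14 genes that depended on the Carlos E-L 32 libraries, 11 were among the 34. With upper-quartile scaling 60.5% of all called genes were higher in Noble in place of 50.4%, and 38 members were higher and 2 lower. Without Noble E-L 32 replicate 1, in which 65 members were higher than in replicates 2 and 3, 28 members were higher and 2 lower (20.1% of all genes called), and the median over members was 0.65.

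The 3 largest differences at bunch closure were in genes at or near 0 in Carlos. VIT_12s0059g02350 and VIT_19s0177g00090 are among the 14 genes that depend on the Carlos E-L 32 libraries, so their E-L 32 difference entered the choice. VIT_12s0059g02350 stood at 76.8, 69.8 and 74.2 TPM in Noble and 0, 0 and 0 TPM in Carlos at E-L 32, at 68.5, 331 and 91.4 TPM in Noble and 103, 102 and 707 TPM in Carlos at E-L 35, and at 44.5, 36 and 25.7 TPM in libraries labelled Noble and 50.5, 46.4 and 15.6 TPM in those labelled Carlos at E-L 38. At E-L 32 it had 0 counts in the Carlos group and was at least 2639.8-fold higher in Noble, counting 3 reads over the group as the floor (adjusted p = 7e-05). This bound was 1574 without Carlos E-L 32 replicate 1. For VIT_19s0177g00090 the E-L 32 values given above differed by a log2 fold change of 12.93 with an SE of 1.99 (edgeR, adjusted p = 0.00027). It was not called with limma-voom (adjusted p = 0.092, the highest over its alternatives) and was 14.07 without Carlos E-L 32 replicate 1. VIT_07s0005g03410 differed by 12.47 (SE 1.72, edgeR adjusted p = 0.0001) on the log2 scale, and by 13.16 without Carlos E-L 32 replicate 1.

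The few members higher in Carlos at bunch closure differed by less than 3-fold on the linear scale. VIT_16s0100g00380 stood at 17.3, 7.19 and 5.77 TPM in Noble and 26, 23.8 and 25.6 TPM in Carlos at E-L 32, at 99.1, 98.3 and 88.2 TPM in Noble and 117, 110.3 and 66.1 TPM in Carlos at E-L 35, and at 9.72, 9.62 and 17.2 TPM in libraries labelled Noble and 70.7, 75.3 and 36.6 TPM in those labelled Carlos at E-L 38. Its log2 fold change of Noble over Carlos at E-L 32 was -1.44 with an SE of 0.37 (edgeR, adjusted p = 0.01). Without Noble E-L 32 replicate 1, its highest Noble library of that stage, the log2 fold change was -2.10, and without replicates 2 and 3 in turn the call ended (adjusted p = 0.056 and 0.054). VIT_07s0197g00090 stood at 6.71, 4.7 and 4.94 TPM in Noble and 12.2, 10.4 and 7.57 TPM in Carlos at E-L 32, at 31.7, 53.2 and 27 TPM in Noble and 21.2, 24.8 and 14.2 TPM in Carlos at E-L 35, and at 6.74, 5.24 and 9.0 TPM in libraries labelled Noble and 16.1, 16.2 and 16.1 TPM in those labelled Carlos at E-L 38. Its E-L 32 log2 fold change was -1.02 (SE 0.27, edgeR adjusted p = 0.01), and the call ended without Noble E-L 32 replicate 2 or Carlos E-L 32 replicate 1 (adjusted p = 0.052 and 0.053). VIT_12s0034g00270 stood at 4.03, 4.5 and 5.1 TPM in Noble and 9.69, 8.48 and 6.94 TPM in Carlos at E-L 32, a log2 fold change of -0.98 (SE 0.35, edgeR adjusted p = 0.047). Its call ended when any 1 of the 6 libraries of this stage was left out (adjusted p = 0.066 to 0.15). VIT_12s0034g00270 also left the set when any 1 Noble E-L 32 library was left out, so this difference entered the choice. Expected counts of VIT_07s0197g00090 and VIT_12s0034g00270 were not whole in all 18 libraries.

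At veraison fewer members differed between the cultivars. Of the 79, 14 were called (17.7%), 5 higher in Noble and 9 higher in Carlos, against 19% of all genes tested (9.75% higher and 9.25% lower in Noble), which is near the background. The median log2 fold change over members was -0.60, against -0.024 over all genes. Without the 3 atypical libraries 39 members were called, 7 higher in Noble and 32 higher in Carlos, against 32.8% of all genes. The count was 30 without Noble E-L 35 replicate 2 (22.6% of all genes), 5 without Noble replicate 1 (10.4%) and 6 without Noble replicate 3 (12.1%). Noble E-L 35 replicate 2 was set apart by the members' own high levels in it. Leaving it out thus tends to lower Noble in these genes, and nothing is read from the counts without it. A fit to the 6 veraison libraries alone called 4 members, all higher in Noble, against 2.81% of all genes.

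Members higher in Noble at veraison included genes without a peak in Carlos as labelled, a reading that rests on the E-L 38 labels in doubt. In Carlos the E-L 35 median was 0.434 times the E-L 38 median in VIT_14s0081g00720 and 0.456 times in VIT_12s0028g03010. With the E-L 38 labels exchanged it was 2.05 and 4.13 times. VIT_14s0081g00720 stood at 12.7, 10.3 and 9.04 TPM in Noble and 5.08, 4.34 and 4.69 TPM in Carlos at E-L 32, at 52, 37.1 and 42.8 TPM in Noble and 9.25, 9.27 and 13.8 TPM in Carlos at E-L 35, and at 4.42, 4.63 and 4.52 TPM in libraries labelled Noble and 24.3, 21.4 and 13.7 TPM in those labelled Carlos at E-L 38. Carlos replicates 1 and 2 lay below all 3 E-L 38 libraries of the same label, and its log2 fold change of Noble over Carlos at E-L 35 was 1.87 with an SE of 0.22 (edgeR, adjusted p = 5.6e-05). VIT_12s0028g03010 stood at 11.1, 8.09 and 5.2 TPM in Noble and 10.7, 11.3 and 11.6 TPM in Carlos at E-L 32, at 98.1, 80.6 and 92.2 TPM in Noble and 26.7, 25.3 and 23 TPM in Carlos at E-L 35, and at 6.12, 7.35 and 4.73 TPM in libraries labelled Noble and 65.3, 55.5 and 22.2 TPM in those labelled Carlos at E-L 38. The groups did not overlap at E-L 35, with a log2 fold change of 1.69 (SE 0.31, edgeR adjusted p = 0.0017). Both VIT_14s0081g00720 and VIT_12s0028g03010 left the set when any 1 Noble E-L 35 library was left out. Their Noble level at veraison thus entered the choice. VIT_19s0085g01050, given above, differed by 2.03 (SE 0.57, edgeR adjusted p = 0.023). That call ended without Noble E-L 35 replicate 1 or 3 (adjusted p = 0.063 and 0.084) or without Carlos E-L 35 replicate 1 or 2 (0.079 and 0.080), and in a fit to the 6 libraries alone (0.080), with 0.084 the highest of all alternatives run. Without the 3 atypical libraries the difference was 2.85 on the log2 scale.

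Of the 3 called members with the largest excess in Carlos at veraison, VIT_07s0104g01340 was the one whose cultivars overlapped. VIT_17s0000g02680, given above, had a log2 fold change of -1.81 with an SE of 0.47 (edgeR, adjusted p = 0.015), with no overlap between the cultivars at E-L 35. It was -2.58 without Noble E-L 35 replicate 2, and the call ended without Noble E-L 35 replicate 1 or 3 (adjusted p = 0.075 and 0.069) and in a fit to the 6 libraries alone (0.11). VIT_07s0104g01340 stood at 15.1, 7.58 and 6.78 TPM in Noble and 0, 0.05 and 0.16 TPM in Carlos at E-L 32, at 11.8, 24.9 and 13.5 TPM in Noble and 32.4, 22 and 73.7 TPM in Carlos at E-L 35, and at 26.1, 29.6 and 15.3 TPM in libraries labelled Noble and 2.69, 2.85 and 1.2 TPM in those labelled Carlos at E-L 38. Its log2 fold change at E-L 35 was -1.53 (SE 0.48, edgeR adjusted p = 0.038), but -0.85 and not called (adjusted p = 0.14) without Carlos E-L 35 replicate 3. The call also ended without Noble E-L 35 replicate 1 or 3 (0.15 and 0.12), with the replicate block (0.058) and in a fit to the 6 libraries alone (0.17). VIT_11s0052g00380 stood at 17.6, 15.1 and 15.3 TPM in Noble and 0.95, 1.63 and 0.77 TPM in Carlos at E-L 32, at 47.2, 109.8 and 44.5 TPM in Noble and 151, 149 and 193 TPM in Carlos at E-L 35, and at 68.3, 58.2 and 59.7 TPM in libraries labelled Noble and 29.4, 27.1 and 11.5 TPM in those labelled Carlos at E-L 38. Its log2 fold change at E-L 35 was -1.46 (SE 0.34, edgeR adjusted p = 0.0077). No single library ended this call, which was lost in a fit to the 6 libraries alone (0.098).

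At maturity the members split evenly between the labels. Of the 79, 47 were called (59.5%), 23 higher under the Noble label and 24 higher under the Carlos label, against 23.4% of all genes (11.4% and 12%). The median log2 fold change over members was -0.22, against -0.0044 over all genes, and was 0.028 without Carlos E-L 38 replicate 2 and -0.44 without Carlos E-L 38 replicate 3. If the E-L 38 labels were exchanged, each of these directions would turn and the counts would stay. Of the 10 members called at both E-L 35 and E-L 38, 0 had the same direction. Carlos-labelled E-L 38 replicate 3 was lower than its replicates in 67 members, and without it 17 were higher under the Noble label and 26 under the Carlos label (19.3% of all genes called). Without the 3 atypical libraries 59 were called, 26 and 33, against 37.5% of all genes.

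**Figure D5:**
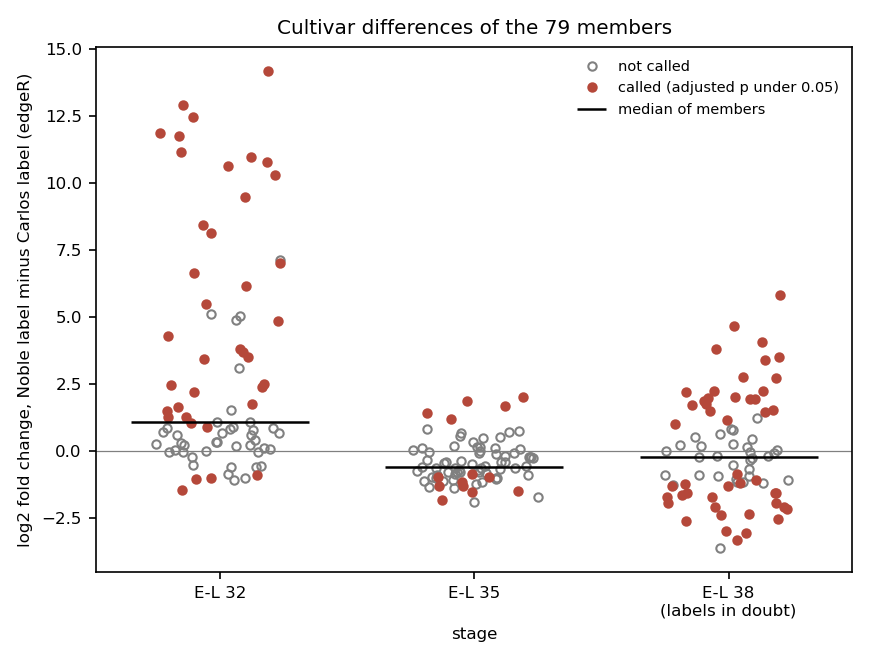
Log2 fold change of Noble over Carlos (y axis, edgeR) at each stage (x axis) for the 79 genes, with called genes filled and the median over members as a line. The median lies at 1.08 at E-L 32, at -0.60 at E-L 35 and at -0.22 at E-L 38, where the labels are in doubt.

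The 3 called genes with the largest excess under the Noble label at maturity were at or near 0 in Carlos at bunch closure. VIT_19s0177g00090, at 1549, 1495 and 6131 TPM under the Noble label and 54.9, 96.7 and 6.73 TPM under the Carlos label, differed by a log2 fold change of 5.82 with an SE of 1.40 (edgeR, adjusted p = 0.0075). It was 4.86 without Noble E-L 38 replicate 3 and 6.69 without Carlos E-L 38 replicate 2. VIT_19s0085g00610 stood at 6.36, 2.64 and 2.14 TPM in Noble and 0, 0 and 0 TPM in Carlos at E-L 32, at 20.5, 101 and 28.5 TPM in Noble and 23.6, 25.4 and 219 TPM in Carlos at E-L 35, and at 36.1, 48.4 and 10.8 TPM in libraries labelled Noble and 1.08, 2.27 and 0.41 TPM in those labelled Carlos at E-L 38. Its log2 fold change at E-L 38 was 4.67 (SE 1.12, edgeR adjusted p = 0.0093), 5.45 without Carlos E-L 38 replicate 2 and not called with limma-voom (adjusted p = 0.14). VIT_07s0005g03410 differed by 4.10 (SE 1.15, edgeR adjusted p = 0.018) at this stage, and its call ended without Carlos E-L 38 replicate 1 or 3 (adjusted p = 0.051 and 0.068). Both VIT_07s0005g03410 and VIT_19s0177g00090 left the set when any 1 Carlos-labelled E-L 38 library was left out, so their E-L 38 difference entered the choice. Of the 21 members called at both E-L 32 and E-L 38, 18 had the same direction, against 407 of 1672 (24.3%) over all genes. Of the 6 called at both E-L 32 and E-L 35, 1 did, against 75.1% of all genes. The cultivar differences at all 3 stages bear on the pooled medians, so these shares are a description of the genes chosen.

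Those called with the largest excess under the Carlos label were low in the Noble-labelled libraries at maturity. VIT_18s0001g09900, given above, had a log2 fold change of -3.33 with an SE of 0.90 (edgeR, adjusted p = 0.017). It was -2.72 without Noble E-L 38 replicate 3, and the call ended without Carlos E-L 38 replicate 2 (adjusted p = 0.053). VIT_12s0134g00240 stood at 34, 35.2 and 33.2 TPM in Noble and 36.1, 26.7 and 35.1 TPM in Carlos at E-L 32, at 52.5, 116 and 67.5 TPM in Noble and 114, 114 and 66.2 TPM in Carlos at E-L 35, and at 8.83, 8.87 and 12.3 TPM in libraries labelled Noble and 63.2, 89.6 and 80.8 TPM in those labelled Carlos at E-L 38. E-L 38 libraries of the 2 labels did not overlap, with a log2 fold change of -3.04 (SE 0.31, edgeR adjusted p = 1.1e-05). VIT_12s0134g00240 left the set when any 1 Noble-labelled E-L 38 library was left out, so this difference entered the choice. VIT_12s0028g03010 differed by -2.98 (SE 0.33, edgeR adjusted p = 2.6e-05) at E-L 38, opposite in direction to its difference at E-L 35. No library left out ended the calls of these last 2 genes.

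Maturity was then compared with bunch closure, averaged over both cultivar labels. The rule set a ceiling on both stages but not their order. The medians of both stages entered the rule, however. The counts of members are therefore a description beside the share of all genes, and nothing is read from their excess over it. Most members were still above their starting level at maturity. Of the 79, 60 were called (75.9%) against 70.5% of all genes, and 58 of these were higher at E-L 38 and 2 lower, against 34.9% and 35.6% of all genes. The median log2 fold change over members was 2.02, against -0.0082 over all genes. These are averages of the log2 fold changes of both cultivars, so a gene near 0 in Carlos at E-L 32 can have a large value although Noble hardly differed.

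VIT_08s0007g04240 stood at 51, 11.1 and 10.1 TPM in Noble and 0, 0 and 0 TPM in Carlos at E-L 32, at 336, 719 and 351 TPM in Noble and 583, 570.2 and 254 TPM in Carlos at E-L 35, and at 232, 212 and 127 TPM in libraries labelled Noble and 403, 458 and 189.5 TPM in those labelled Carlos at E-L 38. It was the member with the largest value of this comparison, with a log2 fold change of 9.87 with an SE of 0.76 (edgeR, adjusted p = 1e-07), and it had 0 counts in Carlos at E-L 32, so the fitted value depends on the prior count. Without Noble E-L 32 replicate 1 it was 10.51. VIT_08s0007g06430 had 9.06 (SE 1.3, edgeR adjusted p = 1.7e-05), with 11.37 without Noble E-L 32 replicate 1 and 9.89 without Carlos E-L 32 replicate 1. VIT_07s0151g00640 had 7.47 (SE 0.65, edgeR adjusted p = 1e-07), with 8.30 without Noble E-L 32 replicate 1. For these 3 genes every E-L 38 library except Noble-labelled replicate 3 of VIT_08s0007g06430 lay above every E-L 32 library.

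Only 2 members were called lower at maturity than at bunch closure. VIT_06s0080g00780 stood at 1.98, 1.78 and 1.83 TPM in Noble and 2.78, 3.97 and 3.53 TPM in Carlos at E-L 32, at 5.56, 15.8 and 5.18 TPM in Noble and 13.2, 12.7 and 10.6 TPM in Carlos at E-L 35, and at 0.66, 0.49 and 0.33 TPM in libraries labelled Noble and 1.89, 2.23 and 0.72 TPM in those labelled Carlos at E-L 38. Its log2 fold change was -1.05 with an SE of 0.32 (edgeR, adjusted p = 0.0094), and it was not called with limma-voom (adjusted p = 0.052). VIT_14s0006g02530, given above, had -0.75 (SE 0.31, edgeR adjusted p = 0.04), with Carlos-labelled replicate 3 at E-L 38 the lowest library, at 0.89 TPM. This call ended when any 1 of 8 libraries of these stages was left out (adjusted p = 0.052 to 0.091).

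The step from bunch closure to veraison differed between the cultivars in 36 members (45.6%), against 17.6% of all genes. In 33 of them the change was more upward in Carlos (8.91% of all genes) and in 3 more upward in Noble (8.69%). The median over members of the difference, Noble minus Carlos, was -1.62 on the log2 scale, against -0.041 over all genes. Without the 3 atypical libraries 50 were called, 44 and 6, against 29.5% of all genes. Among these libraries, Noble E-L 35 replicate 2 was set apart by the members' own high levels, so nothing is read from that count. The difference in the early step is made of the same libraries as the E-L 32 and E-L 35 cultivar comparisons and is no separate evidence. Of the 14 genes that depended on the Carlos E-L 32 libraries, 13 were among the 33, so the excess over all genes is in part built into the choice and nothing is read from it.

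Members that stand next to each other in the identifier list had similar profiles, but all members were chosen for a peak at the same stage. Whether neighbours were more alike than other members was not tested. There were 6 places where members lay at most 6 identifiers apart, and 4 of these held immediate neighbours. VIT_19s0177g00080 and VIT_19s0177g00090 were neighbours whose log2(TPM + 1) correlated at r = 0.96 over 18 libraries. VIT_19s0177g00080 stood at 36.7, 27.6 and 28.6 TPM in Noble and 0, 0 and 0 TPM in Carlos at E-L 32, at 40.2, 147 and 58.9 TPM in Noble and 84.4, 86.6 and 534 TPM in Carlos at E-L 35, and at 63.6, 65.2 and 82.9 TPM in libraries labelled Noble and 12.1, 12.8 and 5.37 TPM in those labelled Carlos at E-L 38. It followed its neighbour at levels far below it, with the same 2 atypical libraries highest. VIT_08s0007g06420 and VIT_08s0007g06430 correlated at r = 0.94, and VIT_04s0008g01580 and VIT_04s0008g01590 at r = 0.90. VIT_08s0007g01400 and VIT_08s0007g01410 were nearly equal in level and correlated at r = 0.98, but expected counts of both were not whole in all 18 libraries, so reads shared between similar genes enter both.

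VIT_08s0007g01400 stood at 39, 26.4 and 26.5 TPM in Noble and 21.2, 21.1 and 24.7 TPM in Carlos at E-L 32, at 77.8, 67.2 and 107 TPM in Noble and 160.4, 159 and 50.3 TPM in Carlos at E-L 35, and at 26.5, 25.9 and 8.91 TPM in libraries labelled Noble and 50.4, 51.4 and 34.6 TPM in those labelled Carlos at E-L 38. VIT_08s0007g01410 stood at 41.6, 25.6 and 28.9 TPM in Noble and 19.9, 22.8 and 23.6 TPM in Carlos at E-L 32, at 78.7, 62.3 and 86 TPM in Noble and 162, 173 and 45.8 TPM in Carlos at E-L 35, and at 29.9, 26 and 11.6 TPM in libraries labelled Noble and 58.8, 58.4 and 24.7 TPM in those labelled Carlos at E-L 38. Carlos replicates 1 and 2 were the highest libraries of both. VIT_15s0048g00480 and VIT_15s0048g00500 correlated at r = 0.95, and the identifier between them, VIT_15s0048g00490, showed no peak, with stage medians of 38.5, 31.8 and 31.5 TPM. VIT_08s0007g04240, VIT_08s0007g04260 and VIT_08s0007g04300 lay together with r between 0.69 and 0.87. Between the first pair, VIT_08s0007g04250 also had its highest median at E-L 35, at 3.38, 83.5 and 38.8 TPM, but missed the rule. The 3 identifiers before the last, VIT_08s0007g04270, VIT_08s0007g04280 and VIT_08s0007g04290, showed no such peak, with stage medians of 0, 0 and 0 TPM, of 1.27, 1.49 and 1.35 TPM and of 35.6, 33.9 and 31.0 TPM. These correlations share libraries and stage and are a description.

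The genes most like the 3 most abundant members were sought among 14828 genes by Pearson correlation of log2(TPM + 1) over the 18 libraries. For VIT_07s0151g00640 they were VIT_08s0007g06160, a member (r = 0.99), and VIT_16s0039g00220, not a member (r = 0.98, stage medians 33.3, 819.7 and 458 TPM). For VIT_19s0177g00090 they were VIT_14s0066g02580 (r = 0.98) and VIT_07s0005g03410 (r = 0.97), both members. For VIT_14s0066g00700 they were VIT_07s0005g05400 and VIT_17s0000g09000 (r = 0.99 each), neither a member. VIT_17s0000g09000 had stage medians of 147, 1260.4 and 659 TPM and so missed the fold of 2 over E-L 38. VIT_14s0066g02580 stood at 19.8, 18.3 and 18 TPM in Noble and 0, 0 and 0 TPM in Carlos at E-L 32, at 12.7, 38.7 and 21.2 TPM in Noble and 18.3, 19.8 and 100.3 TPM in Carlos at E-L 35, and at 14.8, 10.5 and 25.3 TPM in libraries labelled Noble and 2.52, 4.92 and 0.17 TPM in those labelled Carlos at E-L 38. VIT_08s0007g06160 stood at 7.97, 6.01 and 4.97 TPM in Noble and 0.37, 0.21 and 0.25 TPM in Carlos at E-L 32, at 33.6, 81.5 and 38.8 TPM in Noble and 66.8, 64.8 and 67 TPM in Carlos at E-L 35, and at 32.1, 29.4 and 22.7 TPM in libraries labelled Noble and 38.9, 42.6 and 19.2 TPM in those labelled Carlos at E-L 38. The former shared the silence in Carlos at E-L 32 and the peak in Carlos E-L 35 replicate 3, and the latter did not share that peak.

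Gene models of the members were shorter than those of other genes expressed at veraison. Their length had a median of 1009 bases (345 to 3682), against 1471 bases over the 9512 genes with an E-L 35 median of at least 10 TPM. The lengths were not tested. Members carried 19 different chromosome fields, most often 08 (12 members) and 14 (7 members). Expected counts were not whole in some library for 13 members and in 10 or more libraries for 9.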

How the data were processed

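Total RNA of muscadine berries was sequenced in 18 libraries, 3 for each of 2 cultivars at 3 stages, grouped by the labels. The authors deposited 1 table per library with expected counts, TPM and FPKM for 27228 identifiers. The submitters' processing notes name the tools STAR (2.7.6a) and RSEM (1.3.3). No source used here gives the genome build, annotation or strand setting. The expected counts deposited by the authors are estimates in which reads are divided among similar genes. TPM, as deposited, is scaled by length and to a common library total. FPKM, as deposited, is scaled by length and library total and served only as an alternative.

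The 79 members were chosen on TPM. The members, tests and lists were chosen with earlier results of these data known. All 79 passed edgeR's low-count filter, which kept 17657 genes. Since members had to be high at E-L 35, passing it is no result. Rounded expected counts of all 18 libraries entered 1 model in edgeR (version 4.0.16, R 4.3.3), with TMM scaling, a term for each group and quasi-likelihood F tests. Benjamini-Hochberg adjustment ran over all genes tested, and genes were called at an adjusted p under 0.05. The SE is the log2 fold change divided by the square root of F. DESeq2 1.42.0, limma-voom (limma 3.58.1), other scalings, no filter, a replicate block and libraries left out were alternatives. The edgeR steps were tested on simulated data. No 2 replicates agreed within sampling noise (lowest chi-square over its degrees of freedom 3.00). Bounds cover counting error only.

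Named members are the 10 highest by E-L 35 median, the 10 sharpest peaks, the 3 highest and 3 lowest called log2 fold changes of each comparison, the 3 nearest each threshold on both sides, the 3 widest and 3 narrowest veraison ranges, and the genes most like the 3 highest. Others were chosen after their values were seen. The planned gene lists and markers needed names, and 0 could be matched.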

Additional observations from a re-analysis of the deposited data

Results flagged for a closer look

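The early step, bunch closure to veraison, differed between Noble and Carlos by a direct test of the difference (edgeR) in 36 of the 79 genes. The levels at these stages also entered the choice of the genes, and 13 of the 36 left the set when 1 or another Carlos E-L 32 library was left out. The 3 members with the most upward step in Noble were VIT_12s0028g03010, VIT_07s0197g00090 and VIT_14s0060g01470. Each of them left the set when any 1 Noble E-L 35 library was left out, so its Noble level at E-L 35 entered the choice. VIT_12s0028g03010 differed by a log2 value of 2.24 with an SE of 0.45 (edgeR, adjusted p = 0.0034), from like levels at E-L 32 to a Noble level above all Carlos libraries at E-L 35. VIT_07s0197g00090 differed by 1.76 (SE 0.37, edgeR adjusted p = 0.0048). VIT_14s0060g01470 stood at 10.1, 6.31 and 6.82 TPM in Noble and 7.47, 6.34 and 6.74 TPM in Carlos at E-L 32, at 73.4, 85.3 and 68.2 TPM in Noble and 32.5, 34.2 and 21.1 TPM in Carlos at E-L 35, and at 13.4, 11.9 and 16.4 TPM in libraries labelled Noble and 36, 33.7 and 18.6 TPM in those labelled Carlos at E-L 38. It differed by 1.17 (SE 0.33, edgeR adjusted p = 0.025). That call ended without Noble E-L 32 replicate 2 or 3 (adjusted p = 0.071 and 0.069) or Carlos E-L 32 replicate 1 or 3 (0.062 and 0.054).

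The 3 with the most upward step in Carlos were VIT_12s0059g02350 (-15.29), VIT_07s0005g03410 (-14.36) and VIT_19s0177g00090 (-14.28), with adjusted p-values of 0.00023, 0.00024 and 0.0007 by edgeR. The first and the last of these are among those 13. VIT_12s0059g02350 had 0 counts in Carlos at E-L 32, so its fitted value is no measure of size. All 3 were highest in Carlos E-L 35 replicate 3. Without that library the values were -13.70, -11.11 and -10.45, and each was still called. They were -16.25, -15.90 and -14.94 without Noble E-L 35 replicate 2, and -15.05 for VIT_07s0005g03410 and -15.42 for VIT_19s0177g00090 without Carlos E-L 32 replicate 1. With limma-voom VIT_12s0059g02350 and VIT_19s0177g00090 were not called (adjusted p = 0.051 and 0.14).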

How the results depend on the processing

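The rule gave 156 genes at 1.5 times, 21 at 3 times, 132 without the condition on the lowest E-L 35 library, 9 and 12 in each cultivar by itself (E-L 38 labels as given and exchanged), and 130 without the 3 atypical libraries, of which 59 were members. Without single libraries it gave 59 to 145 genes. The lowest was without Noble E-L 35 replicate 2 and the highest without Carlos E-L 35 replicate 3. Stage means, FPKM, TMM-scaled CPM and minima of 5 and 20 TPM gave 74, 75, 63, 93 and 63 genes, sharing 56, 70, 50, 79 and 63 with the 79. Of the tested counts, that of cultivar differences at E-L 35 moved by over 1.5 times: from 14 to 4 in a fit to that stage alone and to 39 without the atypical libraries, and from 5 to 30 without single libraries. The cause was not tested. The other 4 counts stayed within 1.5 times under every alternative run. Named test values kept their direction in every alternative, 419 kept their side of the threshold and 49 lost the call. With the replicate block the calls were 37, 10 and 47 between cultivars at E-L 32, E-L 35 and E-L 38, 61 from E-L 32 to E-L 38 and 35 for the early step. Among the named calls it ended those of VIT_12s0034g00270 at E-L 32 (adjusted p = 0.069) and VIT_07s0104g01340 at E-L 35. Replicate numbers do not pair the libraries: deviations of same-numbered libraries correlated at -0.23 to 0.31 (median -0.00011), and 5 of 18 correlated best with their own number. Levels of a few TPM and groups at 0 limit how finely folds can be read.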
